A study of Mus musculus with 8 samples.

Results

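The 7 genes Anpep, Cspg4, Mcam, Cd248, Nes, Des and Vim encode proteins by which mural cells, the pericytes and smooth muscle cells (SMCs) that wrap blood vessels, are commonly recognised. They were taken by symbol from the deposited table of 37979 mouse genes, and each symbol matched 1 row. The cells were isolated from the hindlimbs of male and female Ai14+/−;SM22α-Cre+ mice, aged 3 to 4 months, in which Cre driven by the SM22α promoter permanently switches on the red protein tdTomato. Pericytes were sorted as PDGFRβ+tdTomato− cells and SMCs as PDGFRβ+tdTomato+ cells, both after removal of CD31+ and CD45+ cells, and the groups therefore share the genotype and differ in the tdTomato gate. The methods and main text give this exclusion, and in the methods the CD31 and CD45 antibodies carry the same dye and dye-negative cells are sorted. A supplementary legend nevertheless writes both populations as CD31+, which would bear on the endothelial markers, Mcam, Vim and Nes. There were 4 pericyte and 4 SMC libraries, all with the same batch label, and each pooled cells from several sorts. The mark is permanent, so a tdTomato+ cell need not express SM22α when it is sorted, and pericytes of pre-capillary arterioles that carry the mark would fall among the SMCs.

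The genes were described as 4 surface genes and 3 filament genes. CD13, the product of Anpep, is a zinc aminopeptidase that trims peptides outside the cell. NG2, the product of Cspg4, is a membrane-spanning chondroitin sulfate proteoglycan, CD146, the product of Mcam, is an adhesion molecule of the immunoglobulin superfamily, and endosialin, the product of Cd248, is a C-type lectin receptor of pericytes and fibroblasts. Vimentin (Vim), desmin (Des) and nestin (Nes) are intermediate filament proteins, which form the stress-bearing rope-like part of the cytoskeleton. Vimentin is made by most mesenchymal, endothelial and blood cells, desmin by muscle cells and pericytes, and nestin by progenitor, endothelial and some perivascular cells. None of the 7 proteins is made by mural cells alone.

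Levels were given as FPKM, the fragments mapped to a gene scaled by transcript length and by library depth, so that genes can be compared with each other. The number of fragments behind a value is not in these data, so no counting error is given. The summed FPKM of a library ranged from 656405 to 1190435, and the highest sum was that of pericyte replicate 2. Marker genes were checked first. The summed FPKM of 7 T cell markers was 1535 to 2390 in pericytes and 25.0 to 54.2 in SMCs, and that of 6 B cell markers was 830.5 to 2027 against 9.91 to 32.6. The summed FPKM of 10 endothelial markers was 104.0 to 176.7 in pericytes and 411.7 to 1318 in SMCs, and that of 8 fibroblast markers was 833.2 to 1694 against 3977 to 4992, although the fibroblast marker Dcn was listed at 0 in every SMC library. Of these lists, 6 of 7 T cell and 6 of 6 B cell markers were called higher in pericytes, and 8 of 10 endothelial and 7 of 8 fibroblast markers higher in SMCs (5 endothelial markers without pericyte replicate 1). The 9 mural markers summed to 580.7 to 1872 FPKM in pericytes and 1751 to 5551 FPKM in SMCs, and none was at 0 in a whole group. Their median log2 fold change was -1.37, and 1 of them (Rgs5) was called higher in SMCs by limma, whereas 6 had an unadjusted p below 0.05. That count of 1 became 6 among genes with at least 1 FPKM in at least 4 libraries. With this filter, 3040 of 13349 genes tested were called higher in SMCs, against 3060 of 27414 at the reported setting. The count of mural markers became 5 with a replicate block, 4 with a replicate covariate and 3 with a common FPKM sum. It was 0 with all listed genes or without any 1 of SMC replicates 3 and 4 and pericyte replicates 1 and 3. The source of these transcripts was not tested, and in bulk libraries fewer cells of a type and less RNA per cell cannot be told apart.

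All 7 genes were measured in all 8 libraries, and each had a higher mean in SMCs. Only Cd248 and Vim had every SMC library above every pericyte library, and only these 2 genes passed the test, limma on log2(FPKM + 1) with Benjamini-Hochberg adjustment (q value) over 27414 genes. Of all genes tested, 11.2% were called higher in SMCs at a q value below 0.05, and 12.5% separated the groups completely in this direction. Of the 13612 genes averaging 1 FPKM or more, which include the 7 genes, 2650 were called higher in SMCs. The share of them that separated the groups completely was not computed. The median log2 fold change, pericytes minus SMCs, was -1.34 over the 7 genes and 0.02 over all genes tested. The genes were chosen with earlier results of these data known, so no test was made over the 7 genes together.

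**Figure D1:**
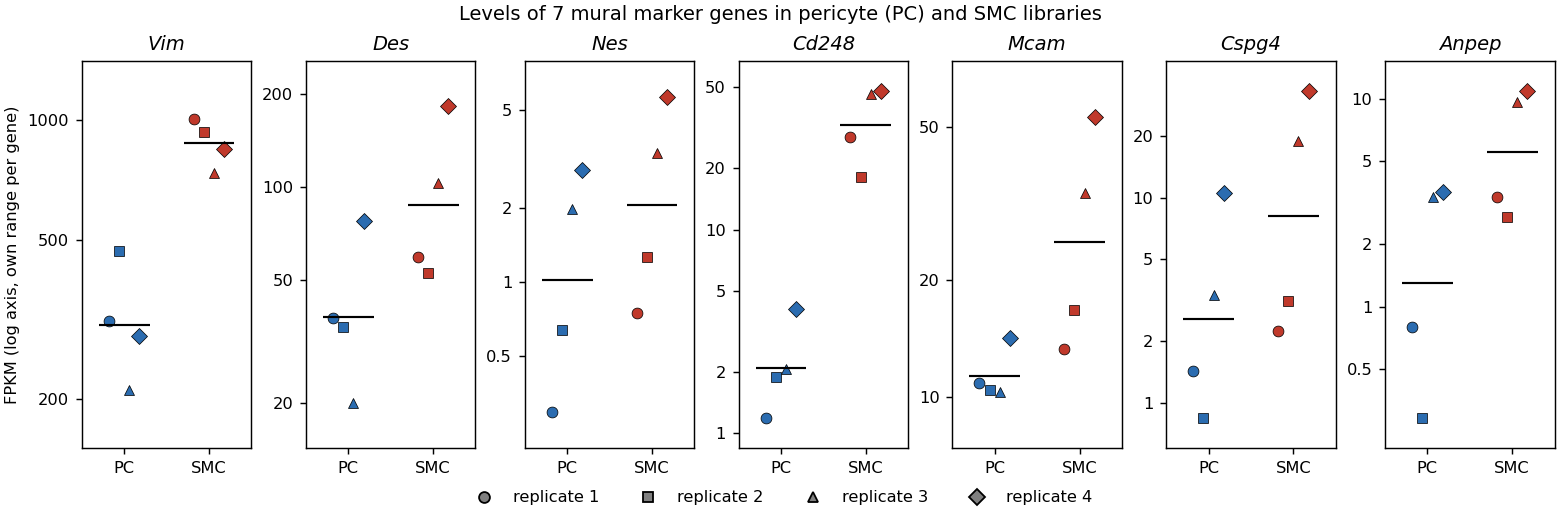
FPKM of the 7 genes in each library on log axes, 1 panel per gene with its own range; symbols mark replicates 1 to 4 and horizontal lines the geometric mean of each group. Cd248 and Vim separate the groups completely, and in the other 5 panels the lower SMC replicates lie within or near the range of the pericyte libraries.

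Cd248 showed the widest separation of the 7 genes. This protein-coding gene occupies chromosome 19, 5068078 to 5070637, plus strand, in the authors' build (NCBI Build 37). Its FPKM was 1.18, 1.88, 2.07 and 4.09 in pericyte replicates 1 to 4 and 28.4, 18.005, 46.0 and 47.9 in SMC replicates 1 to 4. The lowest SMC library was well above the highest pericyte library. Pericytes had a mean of 2.31 ± 1.25 FPKM (SD, n = 4) and SMCs one of 35.1 ± 14.4 FPKM (SD, n = 4), 15.2-fold apart. The log2 fold change, pericytes minus SMCs, was -3.42 (standard error 0.38, limma q = 7.97e-04), and Cd248 was the only 1 of the 7 genes that also passed a log2 fold change of 2, as 2.66% of all genes tested did in this direction. The two-sided exact permutation test gave p = 0.0286, the smallest that 4 against 4 libraries allow. The fibroblast and endothelial marker sums were also higher in every SMC library, and their part in the Cd248 difference was not tested.

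Mcam occupies chromosome 9 from 43942552 to 43950810 on the plus strand. Its FPKM was 10.8, 10.4, 10.3 and 14.2 in pericyte replicates 1 to 4 and 13.3, 16.7, 33.7 and 52.8 in SMC replicates 1 to 4. Only SMC replicate 1 fell below the highest pericyte library, pericyte replicate 4. The means were 11.4 ± 1.86 FPKM (SD, n = 4) and 29.1 ± 18.1 FPKM (SD, n = 4). The log2 fold change of -1.09 (standard error 0.41) did not pass (limma q = 0.114, two-sided exact permutation p = 0.0571). It passed among the genes with at least 1 FPKM in at least 4 libraries (limma q = 0.0446). CD146 is also a protein of endothelial cells, whose summed markers were higher in every SMC library, and their part in the Mcam values was not tested. The antisense gene Gm10687 overlaps exons of Mcam, and it had at most 0.625 FPKM in any library.

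Cspg4, on chromosome 9 from 56712911 to 56747677 on the plus strand, varied more between replicates than between groups. Its FPKM was 1.42, 0.840, 3.36 and 10.5 in pericyte replicates 1 to 4 and 2.24, 3.13, 18.9 and 33.1 in SMC replicates 1 to 4. In both groups replicates 3 and 4 were the high libraries, and the groups overlapped. Within a group the highest library was 12.5 times the lowest in pericytes and 14.8 times in SMCs, whereas the group means, 4.03 ± 4.45 FPKM (SD, n = 4) and 14.3 ± 14.7 FPKM (SD, n = 4), differed by 3.56-fold. The log2 fold change of -1.34 (standard error 0.93) did not pass (limma q = 0.409).

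Anpep, on chromosome 7 from 86966689 to 86993096 on the minus strand, was the lowest of the surface genes on average in both groups. Its FPKM was 0.796, 0.292, 3.38 and 3.54 in pericyte replicates 1 to 4 and 3.35, 2.69, 9.68 and 10.8 in SMC replicates 1 to 4. Pericyte replicates 3 and 4 were slightly above SMC replicates 1 and 2, and this was the whole of the overlap. The means were 2.00 ± 1.70 FPKM (SD, n = 4) and 6.64 ± 4.21 FPKM (SD, n = 4). The log2 fold change of -1.36 (standard error 0.58) did not pass (limma q = 0.154), although its size was close to that of Vim. With the replicate block Anpep was called (limma q = 0.00178), although the replicate numbers were not taken as pairs. Adding 1 before the logarithm understates fold changes of genes this low, and with 0.1 added the log2 fold change was -1.96.

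The filament genes differed in level by orders of magnitude, with Vim first and Des second in all 8 libraries. Nes was the lowest of the 7 genes in 7 of the 8 libraries and the exception was pericyte replicate 2, where Anpep was lower. The stretches of 250 bases before the transcription start of the 3 filament genes are shown because the genes differ most in level, and factor binding to them was not measured here. They are from RefSeq (GRCm38.p6, plus strand), 5′ to 3′, at chr2:13574061-13574310 for Vim, chr1:75360042-75360291 for Des and chr3:87970843-87971092 for Nes. Capitals mark matches, on either strand, to the TATA box TATAAA, to the GC box of Sp-family factors, GGGCGG, and to the E-box of helix-loop-helix factors, CANNTG. None of the matches overlap.
Vim: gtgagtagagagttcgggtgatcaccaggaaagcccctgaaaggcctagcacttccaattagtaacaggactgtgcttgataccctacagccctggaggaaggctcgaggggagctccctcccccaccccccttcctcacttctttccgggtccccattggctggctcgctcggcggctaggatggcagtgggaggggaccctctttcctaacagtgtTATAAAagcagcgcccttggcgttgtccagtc
Des: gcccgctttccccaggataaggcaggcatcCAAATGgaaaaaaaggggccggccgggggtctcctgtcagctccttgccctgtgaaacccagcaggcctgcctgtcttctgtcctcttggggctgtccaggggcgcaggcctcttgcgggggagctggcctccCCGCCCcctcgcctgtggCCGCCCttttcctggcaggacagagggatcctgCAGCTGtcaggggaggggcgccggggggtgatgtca
Nes: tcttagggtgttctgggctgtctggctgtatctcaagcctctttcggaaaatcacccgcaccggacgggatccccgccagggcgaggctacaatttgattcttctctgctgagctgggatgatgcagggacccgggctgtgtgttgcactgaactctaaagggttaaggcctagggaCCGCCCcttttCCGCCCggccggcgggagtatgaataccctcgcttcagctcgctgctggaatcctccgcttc
No motif was present in all 3 stretches. Vim held TATAAA, beginning 32 bases before the start, which 12.4% of 32851 promoter stretches of this length in the RefSeq table hold. Des and Nes each held GGGCGG in 2 places, as 32.7% of stretches do at least once, and Des held CANNTG in 2 places, as 66.2% do at least once. The CArG box, the binding sequence of serum response factor, was not found in these stretches, and 1.47% of all stretches hold it. Promoters of 6 of the 7 genes are in that table, and those of Anpep, Mcam and Cspg4 held GGGCGG in 3, 5 and 2 places. These matches describe the letters only.

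Vim (chromosome 2, 13495554 to 13504453, plus strand, NCBI Build 37) was the most even of the 7 genes among SMC libraries. Its FPKM was 314.1, 469.0, 211.0 and 287.3 in pericyte replicates 1 to 4 and 1004, 935.5, 735.3 and 848.2 in SMC replicates 1 to 4. The groups did not overlap, and replicates 3 and 4 were not the high ones in either group. Pericytes averaged 320.3 ± 108.3 FPKM (SD, n = 4) and SMCs 880.7 ± 115.9 FPKM (SD, n = 4), 2.75-fold apart. On the log2 scale the difference was -1.51 (standard error 0.24, limma q = 0.00389, two-sided exact permutation p = 0.0286), which does not reach the log2 fold change of 2 used for enriched genes. The fibroblast and endothelial marker sums were also higher in every SMC library, and the T and B cell sums in every pericyte library. The part of these cells in the Vim difference was not tested.

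Des lies on chromosome 1 from 75356904 to 75365154 on the plus strand. Its FPKM was 37.7, 35.2, 20.0 and 77.6 in pericyte replicates 1 to 4 and 59.5, 52.6, 102.7 and 182.0 in SMC replicates 1 to 4. Pericyte replicate 4 lay above SMC replicates 1 and 2, and the other 3 pericyte libraries lay below all SMC libraries. The means were 42.6 ± 24.6 FPKM (SD, n = 4) and 99.2 ± 59.5 FPKM (SD, n = 4), and the log2 fold change of -1.18 (standard error 0.51) did not pass (limma q = 0.167). Desmin is also made by muscle fibres and satellite cells. The summed FPKM of 7 fibre markers was 13.2 to 21.6 in pericytes and 18.5 to 30.4 in SMCs, that of 5 satellite cell markers was 8.50 to 66.9 against 33.2 to 128.5, and their part in the Des values was not tested. By limma, 0 markers of either list were called, and at an unadjusted p below 0.05 there were 2 fibre markers and 0 satellite cell markers. The count of called fibre markers became 1, higher in SMCs, with the replicate block or the replicate covariate. It was also 1 among genes with at least 1 FPKM in at least 4 libraries. The antisense gene Gm15179 overlaps exons of Des and had at most 0.749 FPKM.

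Nes, on chromosome 3 from 87775000 to 87784373 on the plus strand, had the smallest difference of the 7 genes. Its FPKM was 0.296, 0.639, 1.98 and 2.86 in pericyte replicates 1 to 4 and 0.751, 1.26, 3.35 and 5.62 in SMC replicates 1 to 4. As with Cspg4 and Anpep, replicates 3 and 4 were the high libraries in both groups. The means were 1.44 ± 1.19 FPKM (SD, n = 4) and 2.74 ± 2.22 FPKM (SD, n = 4). The log2 fold change of -0.55 (standard error 0.52) did not pass (limma q = 0.561). With the replicate block Nes was called (limma q = 0.0173), although the replicate numbers were not taken as pairs. With each library left out in turn, its log2 fold change ranged from -0.85 to -0.22. With 0.1 in place of 1 added before the logarithm, the log2 fold change of Nes was -0.92. Nestin distinguishes subtypes of muscle pericytes in published work, and bulk libraries give only the mean level over all cells sorted.

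The replicates were then compared across genes. In Anpep, Cspg4, Cd248 and Nes, replicates 3 and 4 were above replicates 1 and 2 in both groups, a pattern that 8.46% of all genes tested showed, whereas 12.9% showed the opposite. Neither share was computed for the 13612 genes averaging 1 FPKM or more alone. From replicates 1 and 2 to replicates 3 and 4, the mean FPKM of Anpep differed by 6.36-fold in pericytes and 3.40-fold in SMCs, that of Cspg4 by 6.13-fold and 9.69-fold, and that of Nes by 5.17-fold and 4.47-fold. Mcam differed by 1.15-fold in pericytes and 2.88-fold in SMCs, and Vim was lower in replicates 3 and 4 in both groups (0.636-fold and 0.817-fold). The libraries carry the same batch label, and the replicate numbers are not labelled as days or animals. The authors propose that differences between individuals and batch effects may underlie variation among replicates, as each sample combined several sorts. This was not tested here. The Schwann cell marker sum moved in the same way, from 103.2 to 149.4 FPKM in pericyte replicates 1 and 2 to 537.2 to 659.4 FPKM in pericyte replicates 3 and 4, and from 112.6 to 128.4 FPKM to 337.8 to 348.8 FPKM in SMCs. So did 6 of the 9 mural markers, and the part of these cells in the replicate difference was not tested.

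Within replicates 1 and 2, both SMC libraries were above both pericyte libraries for all 7 genes, and the same held within replicates 3 and 4. Of all genes tested, 17.0% showed this in the same direction. That share includes genes averaging under 1 FPKM, and it was not computed for the 13612 at or above this level, which include the 7 genes. The overlap of the groups for Anpep, Cspg4, Mcam, Des and Nes therefore arose between high pericyte replicates and low SMC replicates. No label gives a split into replicates 1 and 2 and replicates 3 and 4, and it was chosen with the values of these libraries known, so calls that use it are a description and not independent support. With this split as a covariate in limma, 14.3% of all genes were called higher in SMCs, and Anpep (q = 4.36e-04), Mcam (q = 0.0399), Cd248 (q = 1.59e-04) and Vim (q = 0.00123) were called. Cspg4 (q = 0.0512), Nes (q = 0.0700) and Des (q = 0.125) were not called. The log2 fold changes were unaltered by the covariate, and the standard error of Anpep fell from 0.58 to 0.12.

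**Figure D2:**
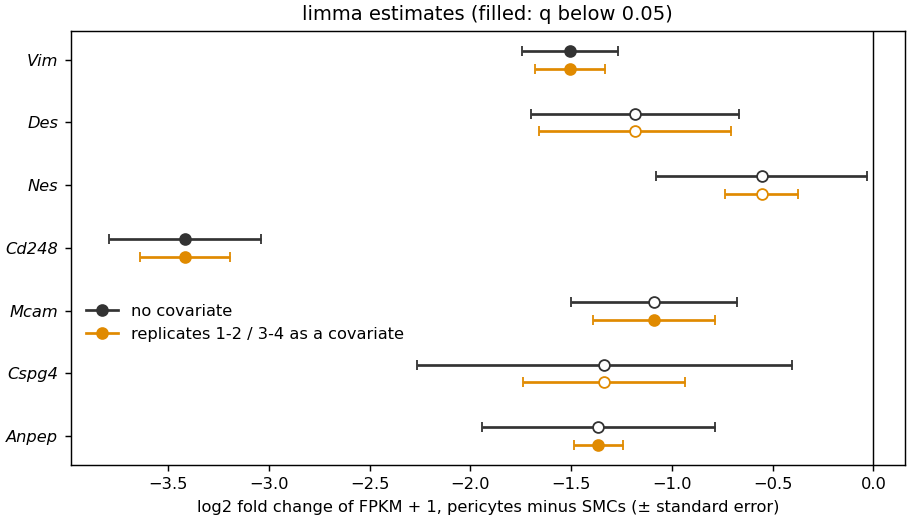
Log2 fold change of FPKM + 1 (pericytes minus SMCs) with its standard error for the 7 genes, without a covariate and with replicates 1 and 2 against 3 and 4 as a covariate; filled points have a limma q value below 0.05. All 14 estimates are below 0, 2 are filled without the covariate and 4 with it.

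The order of the surface genes differed between the groups. In pericytes, Mcam (11.4 FPKM) was the highest surface gene in every library, followed by Cspg4 (4.03), Cd248 (2.31) and Anpep (2.00), whose ranges over the 4 libraries overlapped. In SMCs, Cd248 (35.1) and Mcam (29.1) led, with Cd248 first in 3 of 4 libraries, and their means differed by less than the SD of Mcam. Mcam was above Cspg4 (14.3) in all 4 SMC libraries, and Cspg4 was above Anpep (6.64) in 3 of 4, although the replicate SD of each of these genes is large. Anpep was above Nes (2.74) in all 4 SMC libraries. Expressed as shares of the summed FPKM of the 4 surface genes, Cd248 made up 8.31% to 14.1% in pericytes and 33.1% to 60.0% in SMCs, and Mcam 43.9% to 77.5% in pericytes and 28.1% to 41.2% in SMCs. The ranges of both genes did not overlap between the groups. The 4 shares of a library make up a fixed whole, so the lower share of Mcam in SMCs is not independent of the higher share of Cd248. The mean FPKM of Mcam itself was higher in SMCs. The shares of Anpep (2.18% to 17.7% and 6.63% to 8.93%) and Cspg4 (6.27% to 32.5% and 4.73% to 22.9%) overlapped.

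The proportions of the filament genes overlapped between the groups. Vim made up 78.1% to 92.9% of the summed FPKM of the 3 filament genes in pericytes and 81.9% to 94.6% in SMCs, Des 6.98% to 21.1% and 5.32% to 17.6%, and Nes 0.0842% to 0.849% and 0.0706% to 0.542%. The lowest share of Vim in each group was in replicate 4. These shares are descriptions and were not tested.

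**Figure D3:**
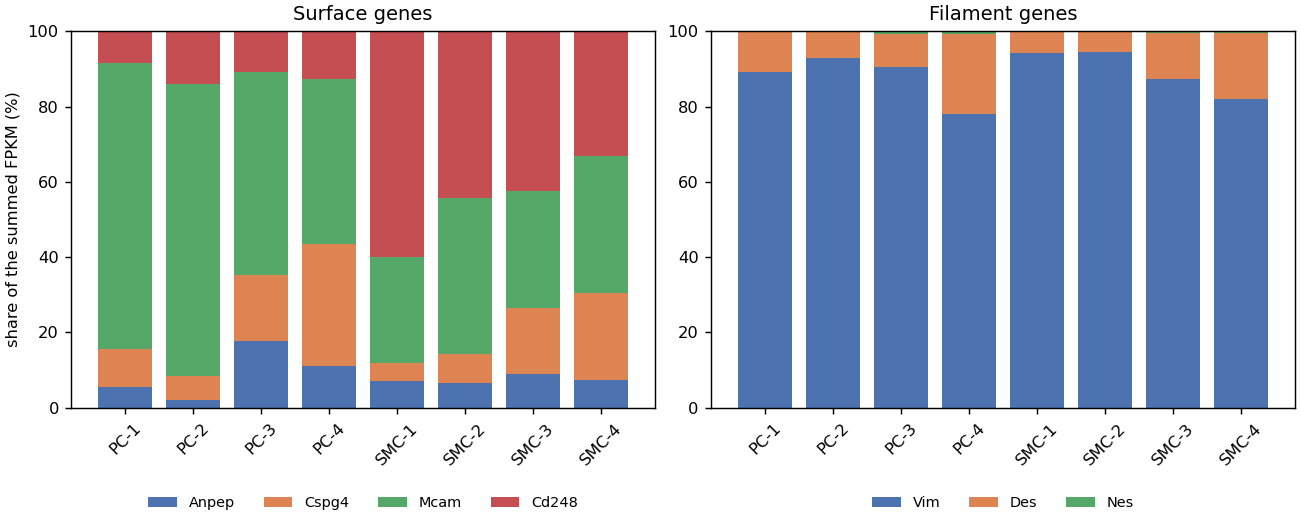
Share of each gene in the summed FPKM of the 4 surface genes (left) and of the 3 filament genes (right), in percent, for the 8 libraries. Cd248 takes 8.31% to 14.1% of the surface sum in pericyte libraries and 33.1% to 60.0% in SMC libraries, and the filament bars overlap between groups.

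Both groups were sorted on PDGFRβ, so the genes were also set against Pdgfrb in the same library. This measure was chosen after the values were seen. Pdgfrb had 5.51, 3.21, 12.5 and 17.6 FPKM in pericyte replicates 1 to 4 and 15.6, 17.4, 65.0 and 91.5 FPKM in SMC replicates 1 to 4, the same split by replicate as Anpep and Cspg4. Relative to Pdgfrb the groups overlapped for all 7 genes, and no gene reached the smallest p of the two-sided exact permutation test (p between 0.0571 and 0.886). Of the 27413 other genes tested, 0.401% separated the groups completely with a higher ratio in SMCs and 22.7% with a higher ratio in pericytes, so overlap was the usual outcome of this division and is not a result about the 7 genes. The ratio of Anpep was 0.0910 to 0.271 in pericytes and 0.118 to 0.214 in SMCs, with a difference of mean log2 ratios, pericytes minus SMCs, of 0.07. Cd248 alone had a higher mean log2 ratio in SMCs, with ratios of 0.524 to 1.81 against 0.166 to 0.588 in pericytes and a difference of -1.79. The Nes ratio lay between 0.0538 and 0.199 in pericytes and between 0.0481 and 0.0720 in SMCs, a difference of 1.16, and Mcam had 0.806 to 3.24 against 0.519 to 0.959, a difference of 1.03. Pdgfrb itself had a log2 fold change of -2.02 (limma q = 0.0973), and dividing by it shifts all genes of a library by the same amount, so the sign of a ratio difference says only whether a gene differed by more or less than Pdgfrb.

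**Figure D4:**
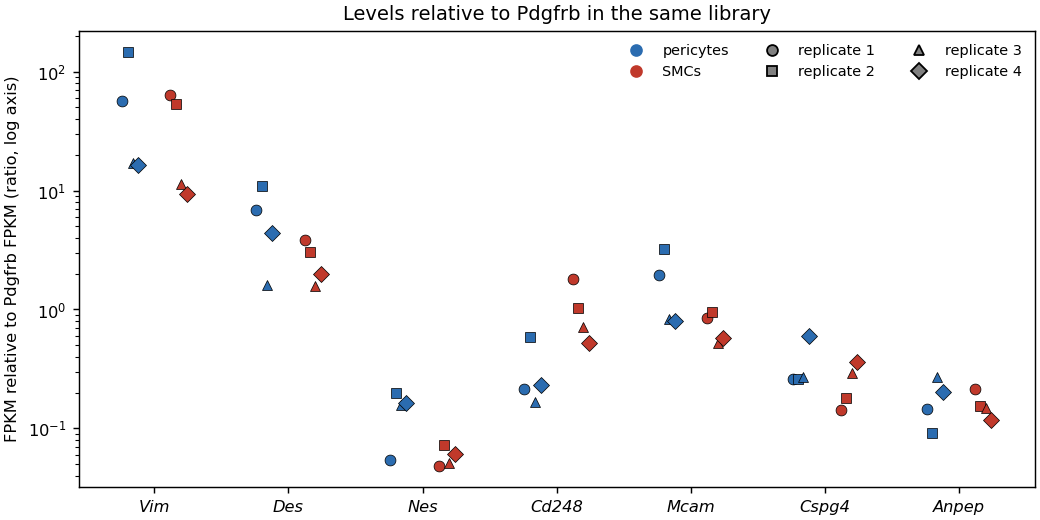
FPKM of the 7 genes divided by the FPKM of Pdgfrb in the same library, on a log axis, with 1 symbol per library. The groups overlap for all genes, and Cd248 alone has a higher mean log2 ratio in SMCs.

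Genes whose profile over the 8 libraries was most like that of each member were found by the root mean square difference of log2 values after each gene's own mean was subtracted, among the 13612 genes averaging 1 FPKM or more. For Anpep the closest was Kcnj8, which encodes a potassium channel subunit (difference 0.19, against a spread of Anpep itself of 1.03), followed by Tnks1bp1 and Ndrg1. For Cspg4 the closest were Mrvi1 (0.18), Smtn (0.20), which encodes smoothelin, and Atp1b2 (0.21). For Cd248 they were Cygb (0.21), which encodes cytoglobin, Podn (0.28), a small leucine-rich proteoglycan, and Csf3 (0.33). For Mcam they were P2ry13 (0.14), Nfic and Abcc8, and for Nes Plin4 (0.16), Arhgap31 and Plekhg5. For Des they were Cap2 (0.24), P2rx1 and Nrip2, and for Vim B230118H07Rik (0.087), Mpv17 and Ccdc90b. The distance to be had by chance from the best of 13612 genes was not computed, so these are descriptions and shared regulation was not tested. Among the 7 genes themselves, Mcam and Des were the closest pair (0.40), and Cd248 and Nes the most distant (1.48).

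Related genes were taken from lists, in which 34 of 85 genes were called higher in SMCs and 4 higher in pericytes. The shares of all genes tested were 11.2% and 10.6%, and of the 13612 genes averaging 1 FPKM or more, 2650 and 2681 were called. The median log2 fold change of the lists was -1.04, against 0.02 over all genes tested. Among 17 other intermediate filament genes, 1 was higher in SMCs and 3 were higher in pericytes (median log2 fold change -0.15). This balance depended on the setting, with 4 higher in SMCs against 2 in pericytes among genes with at least 1 FPKM in at least 4 libraries, 3 against 2 with a common FPKM sum, and 3 against 3 with the replicate block or covariate. Prph (peripherin, a relative of vimentin and desmin) had 10.1 ± 5.68 FPKM (SD, n = 4) in SMCs and 1.11 ± 0.48 in pericytes (limma q = 0.00741). The lamin genes Lmnb1 (log2 fold change 1.53, limma q = 0.0136) and Lmnb2 (0.88, limma q = 0.00587), whose products line the nucleus, were higher in pericytes, as was the neurofilament gene Nefh (0.75, limma q = 0.00612), which was at or below 1.13 FPKM in every library. Lmna, the highest of the list, had 883.7 ± 508.6 FPKM (SD, n = 4) in SMCs and 297.1 ± 94.1 in pericytes and did not pass (limma q = 0.0709). Among 10 linkers and chaperones of filaments, 3 were higher in SMCs and 7 were not called (median log2 fold change -0.97). The called genes were Hspb1 (log2 fold change -2.52), Bag3 (-1.67) and Cryab (-1.22), which encode chaperones or a co-chaperone, whereas the linker Plec was not called (limma q = 0.732). The count of 3 became 6 among genes with at least 1 FPKM in at least 4 libraries or with the replicate block, and 5 with the covariate. At these settings, in that order, 3040 of 13349, 3175 of 27414 and 3929 of 27414 genes tested were called higher in SMCs.

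The families of the surface proteins were compared in the same way. Of 10 other aminopeptidases of the CD13 family, 4 were higher in SMCs and 6 were not called, although the median log2 fold change of 0.15 had the opposite sign. The count of 4 became 2 with all listed genes or without any 1 of SMC replicates 1, 2 and 4 and pericyte replicates 1 and 4, and 3 genes were called higher in pericytes without pericyte replicate 2. Enpep, which encodes aminopeptidase A, another enzyme of mural cells, had 11.5 ± 2.40 FPKM (SD, n = 4) in SMCs and 2.85 ± 0.49 in pericytes (limma q = 4.05e-04). Lvrn, listed as 4833403I15Rik, had 5.10 ± 1.03 FPKM (SD, n = 4) in SMCs and 0.370 ± 0.256 in pericytes (limma q = 2.18e-04), and Erap1, which trims antigens in the endoplasmic reticulum, was not called (limma q = 0.10). Of the 3 other receptors of the endosialin family, Clec14a (log2 fold change -2.80) and Cd93 (-1.72) were higher in SMCs and Thbd (-2.05) was not called, and all 3 are known from endothelial cells. Of 11 other adhesion molecules of the immunoglobulin superfamily, 5 were higher in SMCs and 6 were not called (median -1.62), led by Jam2 (-3.28), Vcam1 (-2.83), F11r (-2.71) and Esam (-2.63). Of 6 other proteoglycan cores, 1 was higher in SMCs, Vcan (-1.51), which encodes versican, and the median was -0.11.

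Partners that bind NG2, CD146 or endosialin included 12 of 19 genes higher in SMCs and 7 not called, with a median log2 fold change of -1.84. Col1a1, a chain of collagen I, which endosialin binds, had 1071 ± 606.4 FPKM (SD, n = 4) in SMCs and 95.5 ± 53.9 in pericytes (limma q = 0.00502). Col6a1 (log2 fold change -2.89) and Col6a2 (-2.94), chains of collagen VI, a ligand of NG2, and Fn1 (-2.66), fibronectin, were also higher in SMCs. Lgals1 and Sdcbp were not called (limma q = 0.284 and 0.486). Of 9 surface markers used for mesenchymal stromal cells (median -1.60), 6 were higher in SMCs, among them Pdgfra (-3.60), Cd34 (-2.98) and Eng (-2.55), and Thy1 (2.12, limma q = 0.0120), which T cells also carry, was higher in pericytes. Several listed genes are made by endothelial cells, fibroblasts or lymphocytes, whose marker sums differed between the groups, and the part of those cells was not tested.

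**Figure D5:**
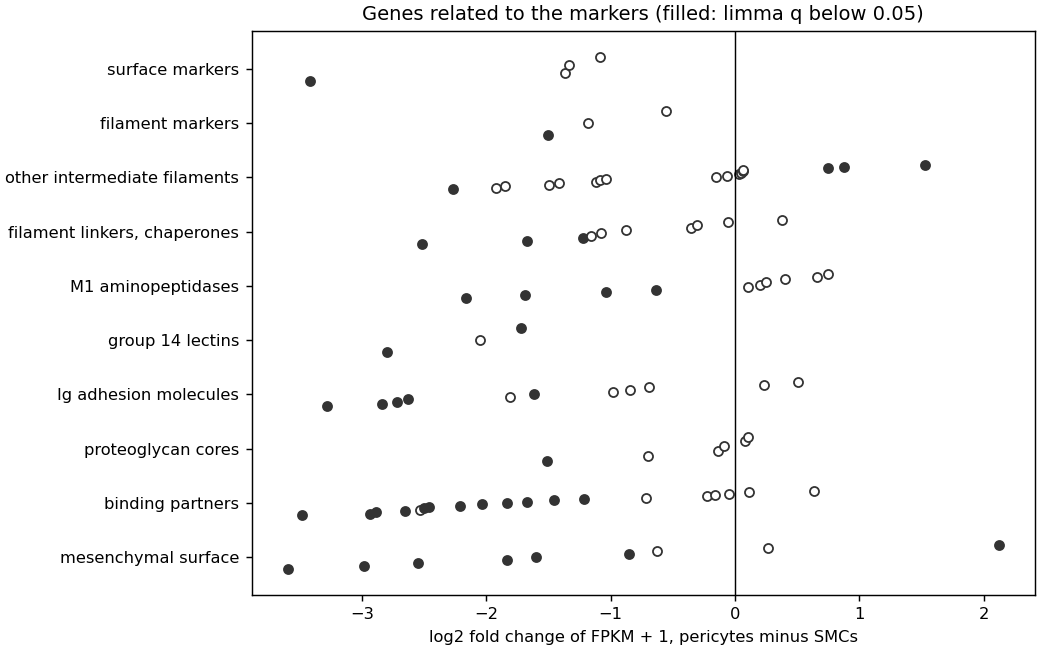
Log2 fold change of FPKM + 1 (pericytes minus SMCs) of each gene in the 7 markers and in 8 lists of related genes; filled points have a limma q value below 0.05. Binding partners and adhesion molecules lie mostly below 0, and the filled points above 0 are Nefh, Lmnb1, Lmnb2 and Thy1.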

How the data were processed

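RNA from sorted pericytes and SMCs was amplified with a SMART-Seq ultra-low input kit and sequenced from Nextera XT libraries. Alignment by the authors used Bowtie2 and TopHat against NCBI Build 37 with an Ensembl annotation, and they deposited FPKM on a linear scale, 1 value per gene and library, with replicates not pooled. The program that computed FPKM and the use of strand are not given in the sources used here. Gene positions came from GENCODE M1 (Ensembl release 65), which holds 37195 of the 37979 identifiers.

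Values were tested as log2(FPKM + 1) with limma 3.58.1 in R 4.3.3 (lmFit, eBayes), Benjamini-Hochberg adjusted over 27414 genes above 0 in at least 1 library. On data simulated for pericytes against SMCs (27414 genes), 93 of 100 genes changed by 4 log2 units and 57 of 100 changed by 2 were recovered, with 9 false calls. The changed genes were drawn from those with a mean log2(FPKM + 1) above 2, with independent noise and no shift between replicates. Both sizes exceeded the log2 fold change of every member but Cd248, so recovery of smaller changes was not measured. Exact permutation tests enumerated all 70 assignments of 4 and 4 libraries. Python 3.11.15, numpy 2.4.6 and pandas 2.3.3 were used, with matplotlib 3.10.9 for figures. Replicates are separate pools of sorted cells, and the animals behind each are not labelled, so p-values measure the spread between these pools.

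The members and lists were chosen with earlier results of these data known. Genes named were the 7 members, Pdgfrb, at most 4 called genes of largest change and 2 others of highest mean per list, and the 3 closest profiles per member. Alternatives covered the pseudocount, filters, scalings, the replicate block, the replicate covariate, an intensity trend, and each library left out. Imaging and cytometry data were not used here.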

Additional observations from a re-analysis of the deposited data

Results flagged for a closer look

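Within groups of 4, a library was marked where its gap to the nearest other library exceeded Dixon's critical share of the group's range. Of 46 groups examined, 3 were marked, and chance marks about 1 in 20. Mcam in pericytes had replicate 4 apart on the log2(FPKM + 1) scale (gap 0.842 of the range), at 14.2 FPKM against 10.3 to 10.8 in the others. The ratio of Cspg4 to Pdgfrb in pericytes also had replicate 4 apart (0.967 of the range), at 0.596 against 0.258 to 0.269. The ratio of Cd248 to Pdgfrb in pericytes had replicate 2 apart (0.843 of the range), at 0.588 against 0.166 to 0.232. Both ratios were judged on a linear scale, without a logarithm, and such a mark can depend on the scale.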

How the results depend on the processing

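No log2 fold change of the 7 genes changed direction under the alternative settings or with a library left out, among which the ratio to Pdgfrb is not counted. Cd248 and Vim were called under all of them (limma q at most 0.00467 and 0.0175). Cspg4 and Des were called under none. Mcam was called among genes with at least 1 FPKM in at least 4 libraries (log2 fold change -1.09, q = 0.0446) and with the replicate covariate (-1.09, q = 0.0399), and Anpep with the replicate covariate (-1.36, q = 4.36e-04). With the replicate block, Anpep (-1.36, q = 0.00178) and Nes (-0.55, q = 0.0173) were called. The replicate numbers were not taken as pairs, since no label says that equal numbers share a sort. Across 13612 genes, deviations from the group means correlated by 0.0794 to 0.474 (mean 0.327) within the 4 pairs of equal number, 1 of them under 0.1. Of 8 libraries, 5 correlated best with their own number. If equal numbers do share a sort, the fit without the block keeps shared shifts in its error.

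With each library left out in turn, the log2 fold changes ranged from -1.65 to -1.03 for Anpep, -1.87 to -0.73 for Cspg4, -1.38 to -0.74 for Mcam, -3.69 to -3.24 for Cd248, -0.85 to -0.22 for Nes, -1.52 to -0.83 for Des and -1.71 to -1.33 for Vim. The values nearest 0 of Cspg4, Mcam, Des and Nes were those without SMC replicate 4. Rescaling to a common FPKM sum shifted the median log2 fold change of genes averaging 1 FPKM or more by -0.20, and by -0.14 without immunoglobulin and T cell receptor genes. The number of genes enriched in SMCs was 728, and 1421 with a pseudocount of 0.1. The list genes called higher in pericytes numbered 4, and 4 to 8 with a library left out, the highest count without pericyte replicate 2. Counts of calls within single lists differed by over 1.5 times from those reported in 34 cases and not in 340 over the settings, and in 23 cases and not in 249 with a library left out, most often for mural markers and other filament genes higher in SMCs. FPKM hold no fragment counts, so the precision of low values such as those of Nes and Anpep is limited in an unknown degree.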
